A study of Mus musculus with 15 samples.

Results

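Genes of mRNA deadenylation and decay were followed in mouse oocytes that had grown either in the ovary or inside cultured follicles. They comprise 10 genes: Btg4, Cnot1, Cnot6l, Cnot7, Pan2, Pan3, Zfp36l2, Dcp1a, Dcp2 and Ythdf2. The genes were chosen by name and by no rule on a measured value, but with earlier results of these data known. All 10 were among the 55401 gene identifiers counted, and all 10 passed the filter on low counts, as did 21009 genes in all. Each of 15 SMART-Seq2 libraries was made from a pool of 6 oocytes at the germinal vesicle stage, that is, before meiosis resumes, with 3 libraries in each of 5 groups. All mice were of the Kunming strain, a stock of closed outbred breeding, and no group carried an engineered allele. IVV oocytes came from antral follicles grown in vivo. IVG oocytes came from preantral follicles grown in vitro for 10 days without neurotrophin-4 (NT-4), a growth factor of the nervous system that also acts through the receptor TRKB in the ovary, and IVG-NT oocytes came from the same culture with NT-4. The groups called IVG day 6 and IVG-NT day 6 were the corresponding cultures stopped on day 6. The labels give an age of 12 to 14 days for the mice of the series, which is the age of the donors of cultured follicles, and no separate age for the donors of IVV oocytes. Since each library pools oocytes, differences between single oocytes cannot be seen, and nothing in the labels ties a pool to an animal.

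A growing oocyte builds up a store of mRNA, falls silent in transcription, and then clears much of that store between meiotic maturation and activation of the embryonic genome. Clearance begins with shortening of the poly(A) tail. The CCR4-NOT complex does most of it, built on the scaffold Cnot1 with the nucleases Cnot7 and Cnot6l, and Btg4 brings the complex to maternal mRNAs in maturing oocytes. The Pan2-Pan3 nuclease trims long tails, Zfp36l2 binds AU-rich elements and Ythdf2 binds N6-methyladenosine to mark transcripts for decay, and Dcp2 with its activator Dcp1a removes the cap. In the germinal vesicle oocyte, several of these mRNAs are themselves stored with short tails and are translated only at maturation, when a cytoplasmic polyadenylation element (CPE) near the 3′ end directs tail lengthening.

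Sequence is shown first for the start sites of Btg4 and Dcp1a, the pair of genes with the highest levels here. Windows of 300 bases around the start site were read from RefSeq on GRCm38.p6 for 6 of the 10 genes, with CG dinucleotides in capitals. The Btg4 window (chr9:51115751-51116050, plus strand) held 1 CG, and only 5.4% of 32851 mouse promoters held fewer. The Dcp1a window (chr14:30479315-30479614, plus strand) held 25, more than 81.6% of promoters, against a median of 7.0.
Btg4: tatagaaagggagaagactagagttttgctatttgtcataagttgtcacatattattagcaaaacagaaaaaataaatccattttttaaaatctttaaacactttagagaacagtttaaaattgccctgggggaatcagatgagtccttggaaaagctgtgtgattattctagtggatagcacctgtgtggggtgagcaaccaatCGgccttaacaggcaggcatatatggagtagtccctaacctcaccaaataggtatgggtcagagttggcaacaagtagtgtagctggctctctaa
Dcp1a: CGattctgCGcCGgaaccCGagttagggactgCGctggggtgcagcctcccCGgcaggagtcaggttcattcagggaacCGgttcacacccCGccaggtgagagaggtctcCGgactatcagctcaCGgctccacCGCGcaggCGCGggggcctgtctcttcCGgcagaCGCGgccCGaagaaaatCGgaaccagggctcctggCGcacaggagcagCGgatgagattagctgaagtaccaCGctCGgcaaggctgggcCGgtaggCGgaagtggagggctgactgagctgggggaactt
The windows of Pan2, Pan3, Ythdf2 and Cnot6l held between 15 CG dinucleotides (Pan2) and 49 (1 of 3 Cnot6l start sites), so Btg4 was the only gene of the 6 below the median of all promoters. E-box letters (CANNTG, which read the same on both strands) occurred in 72.3% of promoters and 2 times in the Btg4 window. CCAAT on either strand occurred in 37.4% of promoters, once in the Btg4 window and 3 times in that of Pan2. The NOBOX element TAATTG, present in 8.0% of promoters, was found in the Ythdf2 window only, and TATAAA, present in 13.6%, in none of the windows examined. Such matches are letters in a window and not evidence of binding.

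The 3′ ends are shown because SMART-Seq2 primes on the poly(A) tail and because the CPE directs tail lengthening at maturation. In the last 100 bases of 1 GENCODE transcript for each gene, the CPE letters TTTTAT or TTTTAAT were found in 5 of the 10 genes, Btg4, Cnot1, Pan2, Pan3 and Dcp1a, against 17.7% of 19954 protein-coding genes. The nuclear polyadenylation signal AATAAA or ATTAAA was found in the other 5 and in Pan2, Pan3 and Dcp1a, 8 of 10, against 78.6% of genes. Stretches of 30 bases on the transcript strand of GRCm38 follow, with the matched letters in capitals. They lie at chr9:51119797-51119826 (Btg4, plus strand), chr8:95719504-95719533 (Cnot1, minus strand), chr10:128321309-128321338 (Pan2, plus strand), chr5:147548461-147548490 (Pan3, plus strand) and chr14:30527011-30527040 (Dcp1a, plus strand), and for contrast at chr8:40492550-40492579 (Cnot7, minus strand), which had the signal alone.
Btg4: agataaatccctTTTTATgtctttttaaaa
Cnot1: aagatgtattgaTTTTATatatgtgagtac
Pan2: acagcatgTTTTATaaAATAAAagtatttt
Pan3: tagcagtattTTTTAATAAAgaattgcaga
Dcp1a: aaatatatttTTTTAATAAAatttcaaaac
Cnot7: aaagcttttgtaAATAAAggcttcaaaaat
In Pan3 and Dcp1a the CPE letters and the signal overlapped by shared bases, and in Pan2 they were separated by 2 bases. In Btg4 and Cnot1 the CPE letters began 67 and 71 bases from the transcript end. The search was exact and used one annotated end per gene, so no match says only that these letters are not in that window. Tail length was not measured in these libraries, and a lower count from fewer transcripts, from shorter tails that prime less well and from less RNA per oocyte cannot be told apart.

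The libraries fell into 2 kinds that did not follow the groups. In 9 libraries, the IVV library labelled replicate 3 and replicates 1 and 2 of every cultured group, between 12.5% and 37.9% of all counts fell on a single annotated rRNA gene, CT010467.1. In the other 6 its share was 0.187% to 0.714%. These are called rRNA-rich and rRNA-poor libraries, and the limit between them was set at 5%. Totals ranged from 5954262 to 43454380 counts in rRNA-rich libraries and from 38502847 to 55593251 in rRNA-poor ones. The shallowest, with 5954262 and 7125348 counts and 13338 and 10991 genes detected, were IVG-NT day 6 replicates 1 and 2, whose log2 values correlated with each other at 0.113, so the fold changes that use IVG-NT day 6 are also given without them. All 12 oocyte markers were detected in every library, with a summed level of 10870 to 27660 CPM, deposited counts per 1000000 counts of the library. The 12 granulosa and cumulus markers summed to 261 to 1202 CPM, 10 theca and stroma markers to 0.509 to 79.3 CPM and 6 macrophage markers to 0 to 49.4 CPM, and their part in the results was not tested.

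Levels are compared between genes as FPKM, counts scaled both to the kilobases of exon and to the total counts of the library. The 10 genes together took 0.154% to 0.648% of a library's counts. Btg4 (chr9:51060901-51119875, plus strand, 2.56 kb of exon) stood first among them in 15 of 15 libraries. Its FPKM was 645, 349 and 525 in IVV, 481, 606 and 521 in IVG, and 440, 477 and 879 in IVG-NT. On day 6 it was 370, 293 and 682 without NT-4 and 163, 134 and 952 with it. The groups overlapped, and their means were 506 ± 149 (IVV), 536 ± 63.5 (IVG), 599 ± 243 (IVG-NT), 448 ± 206 (IVG day 6) and 416 ± 464 (IVG-NT day 6; SD, n = 3 each). At the median of the libraries only 0.358% of detected genes had a higher FPKM than Btg4.

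**Figure D1:**
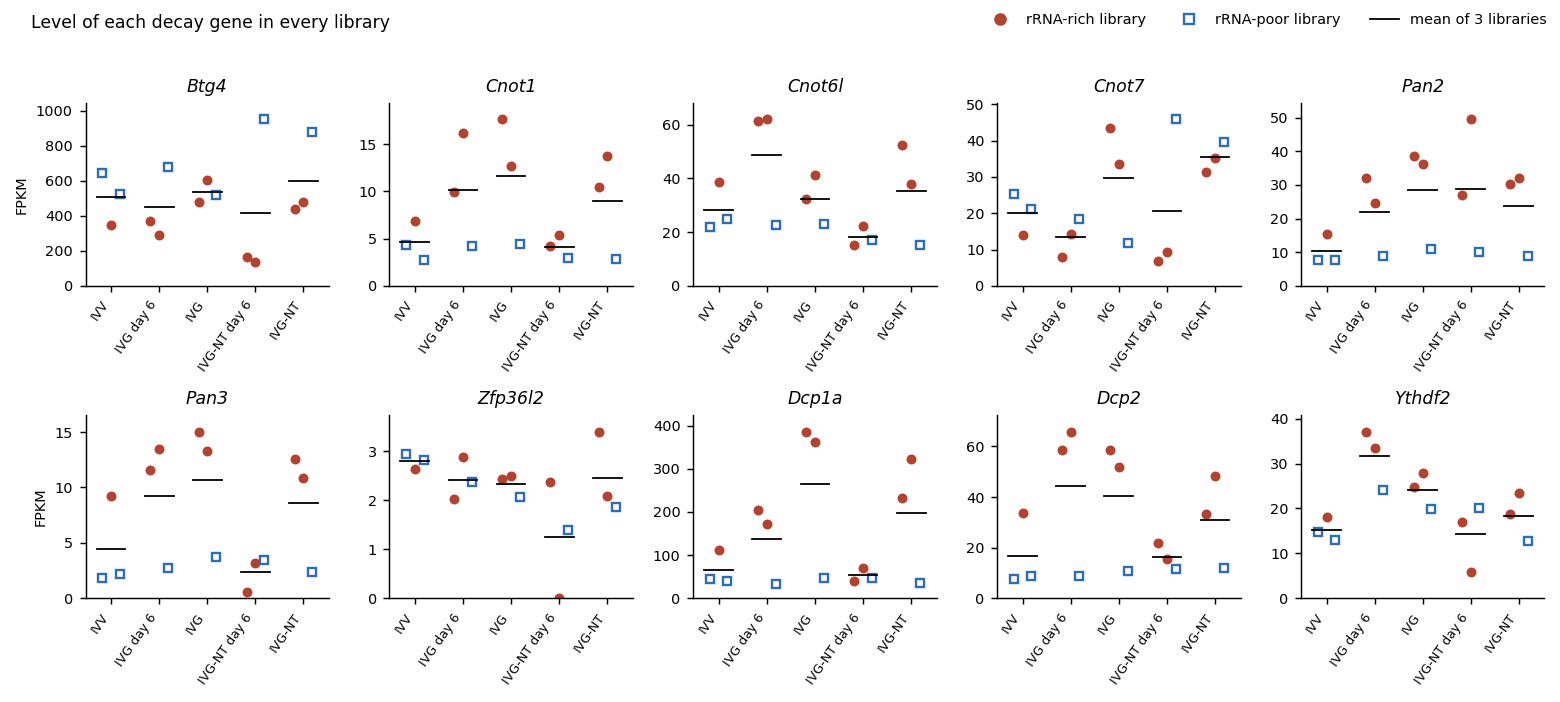
FPKM of each of the 10 genes (linear axis, one panel per gene) in every library of the 5 groups; filled circles are rRNA-rich libraries, open squares rRNA-poor libraries and bars the mean of 3. Btg4 lies between 134 and 952, and for Pan2 and Dcp2 every open square lies below every filled circle.

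Among the CCR4-NOT genes, Cnot6l stood at 1.83 to 8.90 times the FPKM of the scaffold Cnot1 and Cnot7 at 0.795 to 15.8 times, below it only in IVG day 6 replicates 1 and 2. Cnot6l (chr5:96070333-96164171, minus strand), a Ccr4-type nuclease, ranged from 15.2 to 62.0 FPKM, with group means from 18.3 ± 3.68 in IVG-NT day 6 to 48.8 ± 22.5 in IVG day 6. Cnot7 (chr8:40492540-40515847, minus strand), a Caf1-type nuclease, ranged from 6.84 to 45.8 FPKM, with means from 13.5 ± 5.26 in IVG day 6 to 35.4 ± 4.08 in IVG-NT. Cnot1 (chr8:95719451-95807464, minus strand), the scaffold and at 17.17 kb of exon the longest of the 10, ranged from 2.79 to 17.6 FPKM. The level of Cnot7 was 0.128 to 2.66 times that of Cnot6l, so neither nuclease was the higher in every library. Strand was not kept, so reads of overlapping genes on opposite strands cannot be told apart. Cnot7 shares 247 exonic bases with Zdhhc2, whose count was at most 1.73% of that of Cnot7, and Cnot1 shares 132 with 4930513N10Rik, at most 17.0% of that of Cnot1.

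Of the second deadenylase, the nuclease Pan2 (chr10:128303335-128321358, plus strand) stood above its RNA-binding partner Pan3 (chr5:147430161-147548502, plus strand) in 15 of 15 libraries. Pan2 ranged from 7.68 to 49.5 FPKM and Pan3 from 0.584 to 15.04. The Pan2 to Pan3 ratio had a median of 2.95 and stayed between 1.67 and 4.34 outside the IVG-NT day 6 group, where it was 2.89, 15.7 and 46.4. The pair of high ratios came from the shallow libraries.

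Of the decapping pair, the activator Dcp1a (chr14:30479535-30527063, plus strand) held rank 2 or 3 among the 10 genes in every library. Its FPKM was 44.8, 112 and 38.8 in IVV, 386, 361 and 45.9 in IVG, and 233, 324 and 35.4 in IVG-NT. On day 6 it was 203, 171 and 33.7 without NT-4 and 40.8, 70.1 and 46.8 with it. In each group the highest values came from rRNA-rich libraries, and the 6 rRNA-poor libraries together covered only 33.7 to 46.8. Dcp2, the catalytic subunit on chromosome 18, followed at a lower level, with a Dcp1a to Dcp2 ratio of 1.87 to 7.01. The ratio of Btg4 to Dcp1a was 1.25 to 3.98 in rRNA-rich libraries and 11.4 to 24.8 in rRNA-poor ones, 2 ranges that did not overlap.

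The readers differed widely in level. Ythdf2 (chr4:132184912-132212303, minus strand) ranged from 5.83 to 37.1 FPKM and its group means from 14.3 ± 7.53 in IVG-NT day 6 to 31.6 ± 6.68 in IVG day 6. Zfp36l2 (chr17:84183931-84187947, minus strand) was the lowest of the 10 in 12 of 15 libraries, at 0 to 3.40 FPKM, and rested on at most 488 counts. Its 1 value of 0, in IVG-NT day 6 replicate 2, allows a level of up to 0.119 FPKM by counting error alone. For each of the 10 genes, when the 5 groups were put in order of their means, every pair of neighbours overlapped library by library.

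Whether growth in culture changed these mRNAs was asked first by comparing IVG with IVV. No gene of the 10 was differentially expressed, although 9 of the 10 estimates lay above 0. A differentially expressed gene (DEG) here is one that differed by more than 1 on the log2 scale with P below 0.05 in edgeR's quasi-likelihood test, the cut-offs of the study applied to P before adjustment. By this rule 579 of 21009 genes, 2.76%, were DEGs, 177 higher and 402 lower in IVG, and none had a Benjamini-Hochberg adjusted p under 0.05. None of the 10 had an unadjusted P under 0.05, the adjusted p of each was 1, and DESeq2 called none of them as well. The median log2 fold change of the 10 was 0.93, against -0.20 over all genes tested, with a gap of 1.14 that became 1.12 under the size factors of DESeq2.

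Dcp1a came nearest to the threshold in this comparison. Its normalized CPM, scaled by TMM, was 330, 1065 and 282 in IVV and 3506, 2929 and 303 in IVG, a log2 fold change of 2.01 with a standard error of 0.98 (unadjusted P of 0.0575). The groups overlapped, because the rRNA-poor IVG library lay beside the rRNA-poor IVV libraries and well below the rRNA-rich one. Pan2 followed at 1.46 ± 0.88 and Cnot1 at 1.32 ± 0.85 (log2 fold change ± SE), with P of 0.114 and 0.140. Dcp2 (1.22 ± 0.96) and Pan3 (1.20 ± 1.02) came next, and Cnot7 (0.66 ± 0.72) and Ythdf2 (0.64 ± 0.65) lay lower. Btg4 differed by 0.10 ± 0.59, Cnot6l by 0.14 ± 0.69 and Zfp36l2 by -0.26 ± 1.26. No gene's libraries were fully separated between IVG and IVV, which was the case for 11.9% of all genes. IVV holds 1 rRNA-rich library of 3 and each cultured group 2 of 3. With the kind of library in the model the median of the 10 was 0.54 and Dcp1a stood at 0.92, and within rRNA-poor libraries the median was 0.11 and Dcp1a stood at 0.01. Within rRNA-rich libraries, with a single IVV library, Dcp1a was called at 1.62 ± 0.45 (unadjusted P of 0.00739), as were 1.68% of all genes. Within rRNA-poor libraries, where IVG is a single library and the only residual degree of freedom lies between the 2 IVV libraries, Cnot7 stood at -1.10. Leaving out IVV replicate 3 left only rRNA-poor libraries in IVV and made DEGs of 3 genes, Dcp1a (2.82), Pan3 (2.56) and Dcp2 (2.45). In that fit 777 of 22627 genes were DEGs, none with an adjusted p under 0.05. Dcp1a was also called without IVG replicate 3 (2.53), beside 1065 of 23374 genes. It was called at 2.01 without the third replicate of IVG-NT or of IVG day 6, libraries that are not part of this comparison. Those 2 fits called 849 of 23526 and 816 of 23377 genes.

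**Figure D2:**
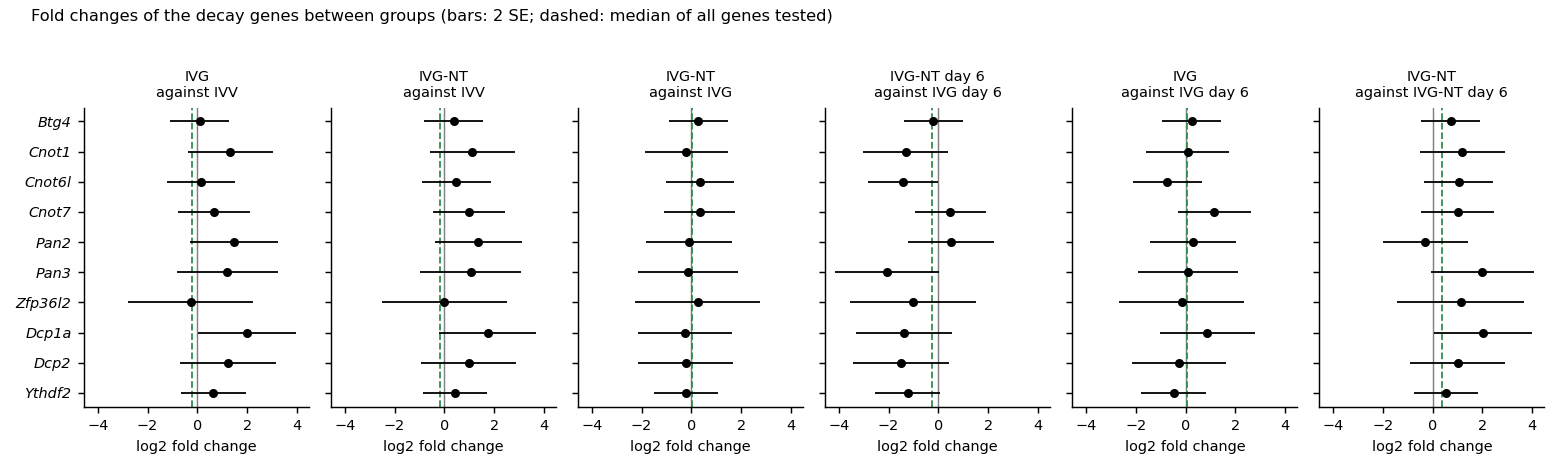
Log2 fold change of each of the 10 genes in the 6 comparisons between groups (points, with bars of 2 standard errors; solid line at 0, dashed line at the median of all genes tested). In IVG against IVV 9 of 10 points lie right of 0 and Dcp1a is farthest at 2.01, while in IVG-NT against IVG all points lie between -0.26 and 0.34.

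Oocytes grown with NT-4 showed a like set of values against IVV, a comparison that shares its IVV libraries with the previous one. No gene of the 10 was among the 691 DEGs, 3.29% of genes tested. Estimates lay above 0 for 9 of 10 genes, with a median of 0.98 against -0.19 over all genes. Cnot7 was the only one whose libraries were separated, with normalized CPM of 131, 93.4 and 109 in IVV and 219, 234 and 207 in IVG-NT, where 11.6% of all genes were separated. Its log2 fold change of 0.99 ± 0.72 did not pass the test (unadjusted P of 0.191). Dcp1a stood at 1.74 ± 0.98 (unadjusted P of 0.0921) and Btg4 at 0.37. Dcp1a stood at 1.35 ± 0.44 within rRNA-rich libraries, where IVV is a single library, and at -0.19 within rRNA-poor ones. It was called without IVV replicate 3 (2.53), beside 838 of 22627 genes, and without IVG-NT replicate 3 (2.26), beside 1122 of 23526.

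Estimates of the NT-4 effect on day 10 lay close to 0 for these genes. Between IVG-NT and IVG no gene of the 10 was a DEG, against 261 of all genes, 1.24%, and none was separated, against 3.59% of all genes. Log2 fold changes ran from -0.26 for Dcp1a to 0.34 for Cnot6l, with 4 of 10 above 0 and a median of -0.13 against 0.01. Standard errors were as large or larger, 0.95 for Dcp1a and 0.69 for Cnot6l, so differences of 2-fold could not be seen for either gene. Replicates with the same number correlated at 0.37 to 0.732 here, and those with different numbers at -0.561 to 0.374. Replicate number also follows the kind of library. In the 12 cultured libraries alone 151 genes were DEGs without replicate number as a block and 144 with it. None of the 10 was among them in either fit. The rRNA-poor libraries, 1 against 1 and so without a replicate check, held 54.9 normalized CPM of Cnot7 in IVG replicate 3 and 207 in IVG-NT replicate 3. The rRNA-rich libraries of the same groups, 279 and 193 against 219 and 234, overlapped.

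On day 6 the estimates lay mostly below 0 with NT-4, and none passed the test. Against IVG day 6, IVG-NT day 6 had no DEG among the 10, where 2430 of all genes, 11.6%, were DEGs. Of these 1416 were higher and 1014 lower, or 58.3% higher, which became 73.3% under the size factors of DESeq2. The median of the 10 was -1.27 against -0.27 over all genes, and -0.77 against 0.00 with those size factors. Pan3, the adaptor of the Pan2 nuclease, had 179, 246 and 33.0 normalized CPM in IVG day 6 and 9.40, 58.3 and 42.7 in IVG-NT day 6, a log2 fold change of -2.05 ± 1.04 (unadjusted P of 0.0657). Cnot6l had 654, 780 and 192 against 169, 286 and 146, at -1.44 ± 0.70 (unadjusted P of 0.0565). Both sets overlapped through the rRNA-poor library of IVG day 6. Ythdf2 was the only one of the 10 whose groups were separated, at 175, 186 and 90.4 against 83.7, 33.1 and 75.7 (-1.23 ± 0.65, unadjusted P of 0.0770), where 8.45% of all genes were separated. Adjusted p over all genes was 0.439 for Cnot6l, 0.450 for Pan3 and 0.468 for Ythdf2.

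The remaining genes on day 6 were Dcp2 at -1.50, Dcp1a at -1.40, Cnot1 at -1.31, Zfp36l2 at -1.03 and Btg4 at -0.21, with Cnot7 at 0.48 and Pan2 at 0.49 above 0. Btg4 showed best what the 3 libraries of IVG-NT day 6 hold, with 447 and 424 normalized CPM in the shallow pair and 1997 in replicate 3, around the 976, 915 and 1425 of IVG day 6. Without the shallow pair Btg4 moved to 0.93, Pan2 to -1.40, Cnot7 to 1.56, Dcp2 to -2.27, Cnot1 to -2.12, Dcp1a to -1.84, Cnot6l to -1.79, Pan3 to -1.73, Zfp36l2 to -1.05 and Ythdf2 to -0.90, with none called from the 1 library left. That library is rRNA-poor and 2 of 3 IVG day 6 libraries are rRNA-rich. With the shallow pair left out and the kind in the model, the median of the 10 was 0.04 and Cnot7 stood at 1.69 ± 0.59. With all libraries and the kind in the model Cnot1 (-1.11), Cnot6l (-1.23) and Ythdf2 (-1.10) were called lower, as were 8.02% of all genes. Within rRNA-rich libraries, where the shallow pair is the whole NT-4 arm, 7 of 10 were called lower, all but Cnot7, Pan2 and Zfp36l2, where 18.1% of all genes were called and 12.7% called lower. Within rRNA-poor libraries the median was 0.42. Leaving out IVG day 6 replicate 3 called Cnot6l (-1.84), Pan3 (-2.53) and Dcp2 (-2.02), beside 2608 of 23377 genes. Leaving out IVG-NT day 6 replicate 2 called Cnot6l (-1.73), beside 2355 of 23264. Without IVG-NT day 6 replicate 3, which leaves the shallow pair, Btg4 was called (-1.35), beside 6817 of 23447 genes.

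From day 6 to day 10 no gene of the 10 was a DEG in either culture. Without NT-4, 609 genes, 2.90%, were DEGs, and the 10 ran from -0.74 for Cnot6l to 1.15 for Cnot7 (unadjusted P of 0.131) with a median of 0.09 against 0.05. Cnot7 had 47.4, 102 and 87.1 normalized CPM on day 6 and 279, 193 and 54.9 on day 10, so that the rRNA-rich pair was higher on day 10 and the rRNA-poor library lower. Within rRNA-rich libraries Cnot7 was called at 1.63 ± 0.57 (unadjusted P of 0.0226), as were 1.77% of all genes, and within rRNA-poor ones it stood at -0.66. It was also called without IVG replicate 3 (1.58), beside 545 of 23374 genes. With NT-4, 2661 genes, 12.7%, were DEGs, 43.1% of them higher on day 10, or 26.3% under the size factors of DESeq2. There 9 of the 10 lay above 0 with a median of 1.03 against 0.40, and 0.53 against 0.04 with those size factors. Dcp1a had 361, 715 and 316 normalized CPM on day 6 and 2295, 3053 and 262 on day 10 (2.01 ± 0.98, unadjusted P of 0.0571), and Pan3 stood at 2.0 ± 1.04 (unadjusted P of 0.0718). Without the shallow pair Dcp1a stood at 2.44, Pan3 at 1.66 and Pan2, -0.29 with all libraries, at 1.59. With the kind in the model as well, these became -0.0023, -0.40 and 0.068. No gene was separated in either time comparison, against 7.42% and 11.0% of all genes.

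Within rRNA-rich libraries, where day 6 with NT-4 is again the shallow pair alone, 7 of the 10 were called higher on day 10, where 19.5% of all genes were called and 13.2% called higher. Btg4 at 1.72 ± 0.23 and Dcp1a at 2.36 ± 0.35 had Benjamini-Hochberg adjusted p of 0.0361 and 0.0393 in edgeR's quasi-likelihood test. Over all genes, 222 of 25589 had an adjusted p under 0.05 in that comparison. Leaving out IVG-NT day 6 replicate 3 from the whole set called Btg4 (1.88, adjusted p = 0.0314 in the same test) and Cnot7 (2.01). That fit leaves the shallow pair on day 6 and called 7211 of 23447 genes, with 2549 genes at an adjusted p under 0.05. Leaving out IVG-NT replicate 3 called Dcp1a (2.53), Pan3 (2.48) and Cnot6l (1.46), beside 2631 of 23526 genes. In rRNA-poor libraries Dcp1a differed by -0.40, and none of the 10 was called. Whether the NT-4 effect differed between days was tested as an interaction, which called none of the 10 and 1339 of all genes, 6.37%. Cnot6l came nearest at 1.78 (unadjusted P of 0.0873), Pan3 stood at 1.90 and Pan2 at -0.60, and without the shallow pair Pan2 stood at 1.27. The interaction called Cnot6l without IVG-NT replicate 3 (2.19) or IVG day 6 replicate 3 (2.19), and Btg4 without IVG-NT day 6 replicate 3 (1.62). Over all genes it called 1564 of 23526, 1675 of 23377 and 4956 of 23447 in that order.

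The kind of library moved with the level of most of these genes. With the group means in the model, 6 of 10 differed between rRNA-poor and rRNA-rich libraries at an adjusted p under 0.05, all higher in rRNA-rich libraries, where 23.7% of all genes differed and 8.41% were higher in rRNA-rich libraries. The log2 differences, rRNA-poor minus rRNA-rich, were -2.37 ± 0.37 for Dcp1a, -2.31 ± 0.30 for Dcp2, -2.06 ± 0.27 for Pan2, -1.93 ± 0.52 for Pan3, -1.84 ± 0.31 for Cnot1 and -1.30 ± 0.25 for Cnot6l. Adjusted p ranged from 0.000117 for Dcp2 to 0.0162 for Pan3 in edgeR's quasi-likelihood test. All 9 rRNA-rich libraries lay above all 6 rRNA-poor ones for 4 genes, Cnot1, Pan2, Dcp1a and Dcp2, as they did for 2.88% of all genes. This held in normalized CPM, and in FPKM Cnot1 and Dcp1a overlapped through IVG-NT day 6 replicate 1. Pan2 showed it plainly, at 150 to 520 normalized CPM against 57.5 to 75.4, and so did Dcp2, at 168 to 699 against 58.9 to 92.2.

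The other 4 genes were not called, and 13.2% of all genes were separated between kinds in either direction. Btg4 stood at 0.72 ± 0.27 (adjusted p = 0.0675 in edgeR's quasi-likelihood test). It was called higher in rRNA-poor libraries with the size factors of DESeq2 (0.86), without the filter (0.81) and with the rRNA gene left out (0.82). Over all genes, 3722 of 21009, 2205 of 36497 and 3421 of 20717 were called higher in rRNA-poor libraries in the same order. Cnot7 stood at 0.26 ± 0.45, Zfp36l2 at -0.50 ± 0.81 and Ythdf2 at -0.63 ± 0.32. The median of the 10 was -1.57 and that of all genes 0.54. Without the shallow pair 7 genes were called, Ythdf2 (-0.84) among them, all higher in rRNA-rich libraries, as were 12.9% of all genes, while Btg4 stood at 0.37 and Cnot7 at -0.23. Exon length moved with the difference across genes. Over 15510 protein-coding genes Spearman's rho between exonic length and the difference was -0.467 as a description, the median difference falling from 3.19 below 1 kb to -0.80 at 8 to 12 kb and -1.23 above 12 kb. Dcp1a (8.23 kb), Pan2 (8.47 kb) and Dcp2 (8.70 kb) lay below the median of genes of their length. So did the estimates of Cnot1, Pan3, Cnot6l, Ythdf2 and Zfp36l2. Cnot7 (5.82 kb) lay above the -0.07 of the 4 to 6 kb genes. Btg4 (2.56 kb) lay close to the median of the 2 to 3 kb genes, 0.95. The part of length in the difference was not tested.

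**Figure D3:**
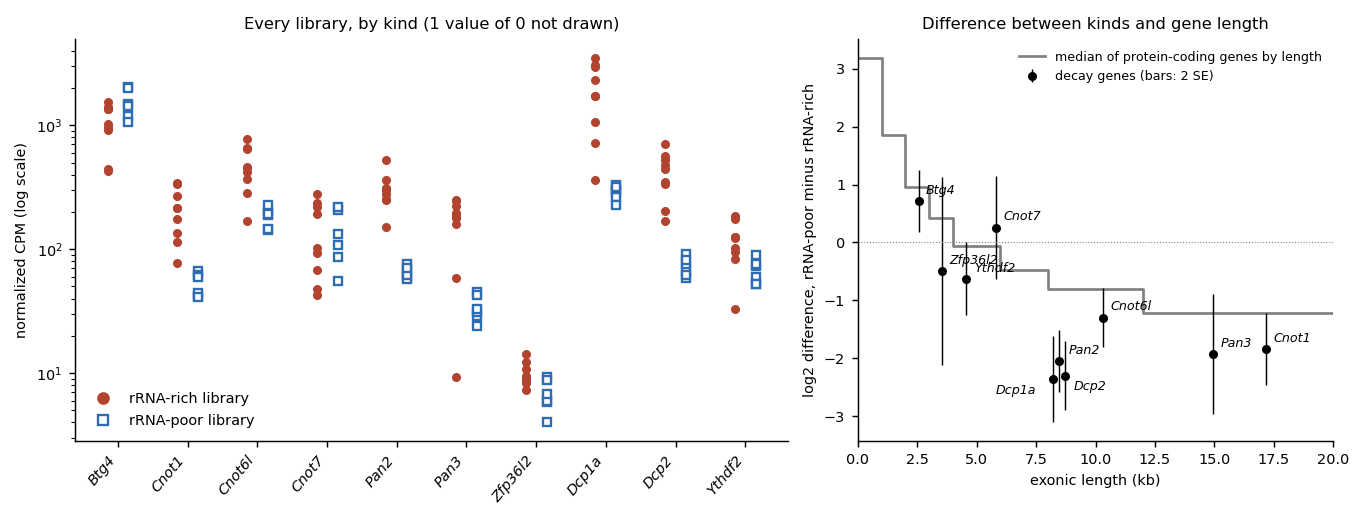
Left, normalized CPM (log scale) of each gene in the 9 rRNA-rich libraries (circles) and 6 rRNA-poor libraries (squares), without the Zfp36l2 value of 0; right, log2 difference rRNA-poor minus rRNA-rich (bars of 2 standard errors) against exonic length in kb, with the median of protein-coding genes by length as a stepped line. Circles and squares do not overlap for Cnot1, Pan2, Dcp1a and Dcp2, and those genes lie between -2.37 and -1.84.

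A share within a gene family does not depend on the library's total, so each gene was set beside its paralogues per kilobase of exon. Btg4 held 81.4% to 97.4% of its family of BTG and TOB antiproliferative genes and was the highest of the 6 in 15 of 15 libraries. Tob2 came next, at 0.991% to 11.9%. Cnot6l held 74.6% to 100% against Cnot6 and was the higher in 15 libraries, with means of 77.6% ± 3.30 (IVV), 88.5% ± 1.68 (IVG), 85.0% ± 5.76 (IVG day 6), 86.1% ± 4.49 (IVG-NT) and 94.9% ± 4.58 (IVG-NT day 6; SD, n = 3). Dcp1a held 98.7% to 99.9% in every library but the shallow pair, 81.6% and 85.1%, where Dcp1b reached 124 and 48.8 normalized CPM.

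The other families were more even. In the Caf1 pair Cnot8 stood above Cnot7 in 14 of 15 libraries, with Cnot7 at 13.8% to 76.8%. Ythdf2 held 39.5% to 79.8% of its family and was the highest in 11 libraries, Ythdf3 being higher in the other 4. In the 8 rRNA-rich libraries with counts and the 6 rRNA-poor ones, Zfp36l2 held 25.1% to 83.3% of its family and was the highest in 10 of 14 libraries. By kind of library, Ythdf2 was at 60.5% ± 14.2 in rRNA-rich and 43.8% ± 2.61 in rRNA-poor libraries, and Zfp36l2 at 48.8% ± 16.5 and 67.3% ± 9.73, both with overlap. Btg4 was at 88.4% ± 2.93 and 95.6% ± 1.5, without overlap.

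**Figure D4:**
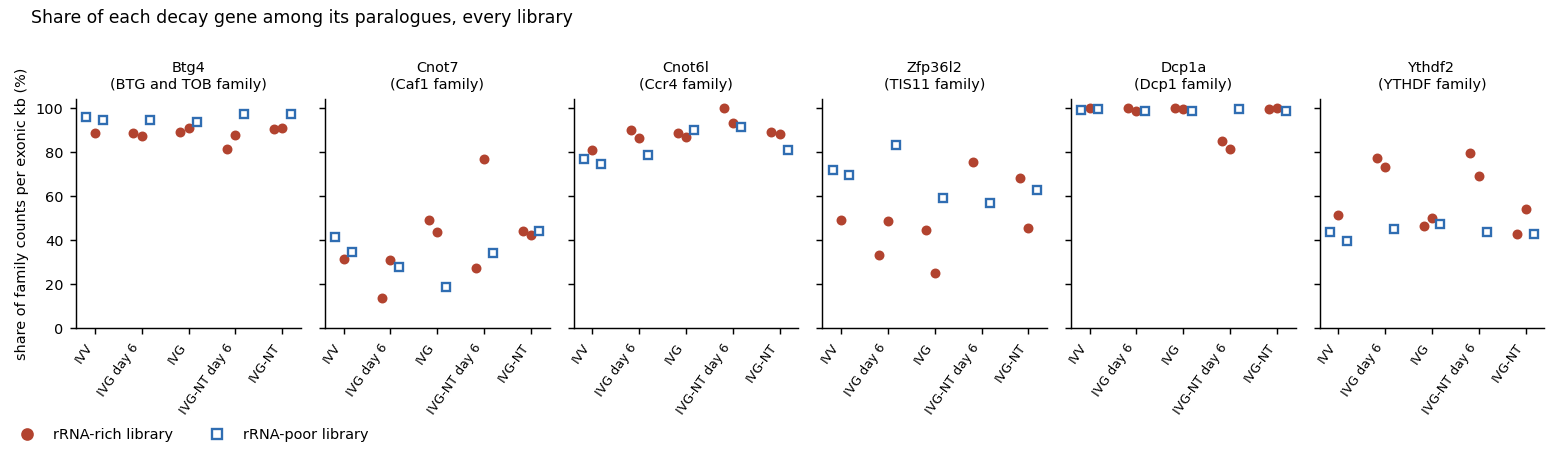
Share of each gene in its family's counts per exonic kilobase (%), every library, one panel per family; filled circles are rRNA-rich and open squares rRNA-poor libraries. Btg4, Cnot6l and Dcp1a lie above 74% in all 15 libraries, and Cnot7 lies below 50% in all but 1.

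The rest of the pathway was taken from 9 lists of 73 other genes, all of them tested. In IVG against IVV, IVG-NT against IVV and IVG-NT against IVG, where 2.76%, 3.29% and 1.24% of all genes were DEGs, none of the 73 was, with medians of 0.09, 0.20 and 0.08. On day 6, with NT-4, 1 was higher and 5 were lower, a share no larger than the 11.6% of all genes. Of these 6, 4 had separated groups, Cnot4 (-1.61 ± 0.61), the ubiquitin ligase of CCR4-NOT, Cnot6 (-2.85 ± 1.16), the paralogue of Cnot6l, Edc4 (-1.37 ± 0.60), a scaffold of decapping, and Angel2 (-1.70 ± 0.79), a relative of the Ccr4 nucleases. Without the shallow pair only Cnot6 of these 4 was still called (-2.46), and Cnot4 stood at -0.73, Edc4 at -0.83 and Angel2 at -0.54. From day 6 to day 10 with NT-4, 6 were higher and 3 lower, beside 12.7% of all genes. Cnot4 (2.13), Edc4 (1.90), Angel2 (2.37) and the exonuclease Xrn2 (2.22) were higher, and the exosome subunit Exosc9 (-1.77) was lower. None of these 5 was called without the shallow pair, at 1.23, 1.34, 1.18, 0.83 and -0.98 in the same order. The 2 day 6 comparisons share the IVG-NT day 6 libraries, shallow pair included. Over the 73 genes, leaving the pair out gave 1 higher and 1 lower on day 6, beside 2.70% of all genes called, and 1 higher and 4 lower with time, beside 2.40%. Without NT-4 1 gene of 73 was a DEG from day 6 to day 10, with overlapping groups, beside 2.90% of all genes.

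Between kinds of library, 17 of the 73 genes were higher in rRNA-poor and 9 in rRNA-rich libraries at an adjusted p under 0.05, beside 15.3% and 8.41% of all genes. Without the shallow pair these were 21 and 19, beside 15.4% and 12.9%. With all libraries, the 7 decapping genes called were all higher in rRNA-poor libraries, and they were subunits of the Lsm1-7 ring, which binds shortened tails ahead of decapping. Of the exonucleases and exosome 7 were higher in rRNA-poor libraries and 1, the 5′ to 3′ exonuclease Xrn1, in rRNA-rich ones. Without the shallow pair, 8 decapping genes were called higher in rRNA-poor libraries and 2 in rRNA-rich ones. For the exonucleases and exosome these were 8 and 4. The decapping list had a median of 1.58 with all libraries, against -2.37 and -2.31 for Dcp1a and Dcp2. Over protein-coding genes the median difference was 3.19 below 1 kb of exon and -0.80 at 8 to 12 kb. The part of length in this contrast was not tested.

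The genes most like Btg4 were found by Pearson correlation of log2 normalized CPM over the 15 libraries, among 8834 genes with a mean of at least 10 normalized CPM. They were Rsrp1 (0.978), Bnip3l (0.964), Gm4353 (0.962), Ribc1 (0.958) and Eif3e (0.956). With the mean of each kind taken off, they were Gm10436 (0.973), Rsrp1 (0.971), Bnip3l (0.964), Rheb (0.959) and Gm18588 (0.958). Rsrp1 and Bnip3l stood in both lists. The points share their libraries and include the shallow pair, in which Btg4 was lowest. Over the 13 libraries without that pair Rsrp1 stayed first, at 0.941 and, with kind means taken off, 0.928, and Bnip3l was in neither list of 5. Among the 10 genes themselves, Cnot1 correlated with Dcp1a at 0.953 and with Dcp2 at 0.937, and Btg4 with Dcp1a at -0.00369 over all libraries and at 0.837 once the kind means were taken off. Without the shallow pair these were 0.956, 0.948, -0.304 and 0.492. With the kind means taken off, Cnot1 correlated with Dcp1a at 0.841 and with Dcp2 at 0.74 over all libraries. Without the shallow pair as well, these 2 fell to 0.547 and 0.388.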

How the data were processed

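Poly(A)-primed, unstranded SMART-Seq2 cDNA of 15 oocyte pools was sequenced in pairs. The authors discarded reads that held adapter, primer or bases of quality under 20, mapped the rest with HISAT2 to mm10 and deposited raw counts per gene. The counting step and annotation release are not given in the sources used here. The submitters' processing notes also name FastQC and edgeR. The whole-series table equals the 15 sample files. Symbols matched 99.5% of 55401 identifiers (GENCODE vM21, GRCm38).

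Groups and replicate numbers came from the labels. Counts were tested with edgeR 4.0.16 (R 4.3.3; limma 3.58.1) by the quasi-likelihood method. TMM factors, filterByExpr with a minimum count of 10, and 1 fit of 5 group means over 15 libraries (10 residual degrees of freedom) were used, with Benjamini-Hochberg adjustment over 21009 genes. SE is the log2 fold change over the root of F. FPKM was computed here from union exons and all counts of a library. The kind term stood beside the group means. The pipeline was tested on simulated data. Tables and plots used Python 3.11.15, pandas 2.3.3 and matplotlib 3.10.9. P-values measure the spread between libraries, which may be partly technical.

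Members and lists were chosen with earlier results of these data known. All 10 genes, their paralogues, pathway genes called with separated groups (at most 5 a comparison) and the 5 genes most like Btg4 were to be named, while Tob2, Ythdf3 and the Lsm genes were picked out after their values were seen. Same-numbered replicates correlated at 0.37 to 0.732 between IVG-NT and IVG and at 0.147 to 0.538 between IVG and IVG day 6. They were taken as paired there. Replicates with different numbers correlated at -0.561 to 0.374 and at -0.385 to 0.258 in the same order, ranges that overlap the former. The numbers come from the sample titles and also follow the kind of library. DESeq2 1.42.0, other size factors, no filter, the rRNA gene left out, each kind alone, fewer groups, a replicate block and each library left out were alternatives.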

Additional observations from a re-analysis of the deposited data

How the results depend on the processing

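No comparison between groups called any of the 10 genes, and several choices changed that. Without the filter on low counts, 36497 genes were tested. Of the 10, 1 was called in IVG against IVV, 1 in IVG-NT against IVV and 1 in IVG-NT day 6 against IVG day 6. In IVG-NT against IVG-NT day 6, 2 were called. DEGs over all genes numbered 1637, 1580, 4022 and 4250 in the same order. The fit within rRNA-rich libraries tested 25589 genes and the fit within rRNA-poor libraries 22895. Within rRNA-rich libraries 1, 1, 7, 1 and 7 genes were called in IVG against IVV, IVG-NT against IVV, IVG-NT day 6 against IVG day 6, IVG against IVG day 6 and IVG-NT against IVG-NT day 6, and 5 by the interaction, and DEGs numbered 392 in IVG-NT against IVV, 28 in IVG-NT against IVG, 4630 on day 6, 4986 with time under NT-4 and 3021 in the interaction. Within rRNA-poor libraries 1 gene was called in IVG against IVV, 1 in IVG-NT against IVG, 1 in IVG-NT day 6 against IVG day 6 and 1 by the interaction, with 2433 DEGs in IVG against IVV, 2586 in IVG-NT against IVV, 1856 in IVG-NT against IVG, 2410 in IVG against IVG day 6 and 3410 in the interaction. Those calls rest on 1 residual degree of freedom, between the 2 IVV libraries, and do not measure the spread of any cultured group. With 1 library in each cultured group, no conclusion on the 10 genes is drawn from the calls within rRNA-poor libraries. With the kind of library in the model 3 genes were called on day 6, 1 with time under NT-4 and 1 by the interaction. DEGs over all genes numbered 3312, 3555 and 1882 of 21009 in the same order. None of the 10 was called in IVG-NT against IVG or IVG against IVG day 6, where DEGs numbered 427 and 1022. With the rRNA gene left out 1 gene, Cnot6l, was called on day 6, beside 2353 of 20717 genes. Fitting only the groups compared gave 970 DEGs in IVG against IVV, 66 in IVG-NT against IVG, 451 on day 6 and 706 with time under NT-4, and DESeq2 gave 153 in IVG-NT against IVG. The cause of each change was not tested.

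Among the cultured groups the replicate block was fitted on the 12 cultured libraries and 19272 genes. The same libraries were therefore also fitted without it, an alternative added after the results had been seen. Without the block they gave 151 DEGs in IVG-NT against IVG, 1774 on day 6, 400 in IVG against IVG day 6, 1973 with time under NT-4 and 935 in the interaction, and called none of the 10 genes. With the replicate block IVG-NT against IVG had 144 DEGs and IVG against IVG day 6 had 484. Where numbers did not pair the samples by the rule used (correlations of 0.0833 to 0.328 and 0.0663 to 0.26), the replicate block called 2 genes and 1411 DEGs on day 6, 1 gene and 1630 DEGs with time under NT-4, and 1 gene and 770 DEGs in the interaction. The block changed no other count of these genes. Against IVV it was fitted on 21009 genes with the IVV libraries included. Same-numbered libraries correlated negatively there, at -0.488 and -0.278 for IVG and -0.522 and -0.329 for IVG-NT. IVV replicates 2 and 3 are each of the other kind than the cultured replicates of the same number.

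With the shallow pair left out, 1 library of IVG-NT day 6 remained and 27377 genes were tested. Calls that use that group, the day 6 call of Cnot7 below among them, do not measure its spread. No conclusion is drawn from those calls. Leaving out the shallow pair was chosen after seeing the data. It gave 1212, 1162, 172, 738, 926 and 657 DEGs in the 6 comparisons in the order of the report, 534 in the interaction and 7760 between kinds. With the kind in the model as well there were 2107, 2117, 2010 and 1300 DEGs in IVG against IVV, IVG-NT against IVV, IVG against IVG day 6 and IVG-NT against IVG-NT day 6, and Cnot7 was the 1 gene called both on day 6 and in IVG against IVG day 6.

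With each library left out in turn, 0 to 3 genes were called in IVG against IVV, on day 6 and with time under NT-4, 0 to 1 in IVG-NT against IVV, in IVG against IVG day 6 and by the interaction, 0 in IVG-NT against IVG, and 5 to 7 between kinds. DEGs ranged from 199 to 1065 (IVG against IVV), 235 to 1122 (IVG-NT against IVV), 126 to 268 (IVG-NT against IVG), 1753 to 6817 (day 6), 311 to 915 (IVG against IVG day 6), 1671 to 7211 (time under NT-4), 1125 to 4956 (interaction) and 2284 to 6269 (kinds). The highest counts on day 6, with time under NT-4 and in the interaction came without IVG-NT day 6 replicate 3, which leaves the shallow pair. Where an arm keeps a single library, that library is assumed to vary like the others.

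Fold changes that changed sign were not called with all libraries, and some were large. In IVG against IVV, Btg4 stood at -0.13 with the size factors of DESeq2 and with DESeq2, and at -0.29 within rRNA-poor libraries. Cnot6l stood at -0.27 with the kind in the model, -0.062 with those size factors and -0.0619 with DESeq2, -0.20 and -0.15 within rRNA-rich and rRNA-poor libraries and -0.52 with the replicate block. Cnot7 stood at -1.10 within rRNA-poor libraries, and Dcp2 at -0.50 and Pan3 at -0.0389 with the block. Dcp1a in IVG-NT against IVV stood at -0.19 within rRNA-poor libraries and -0.0743 with the block, and Cnot6l in IVG-NT against IVG at -0.40 within rRNA-poor ones. On day 6, Btg4 stood at 0.11 with the size factors of DESeq2 and with DESeq2, 0.63 within rRNA-poor libraries, 0.93 without the shallow pair and 0.71 with the kind in the model as well. Cnot7 stood at -0.51 within rRNA-rich libraries. Within rRNA-poor libraries Dcp1a stood at 0.62, Dcp2 at 0.55 and Pan3 at 0.52, and Pan2 stood at -1.40 without the shallow pair. Without it and with the kind in the model Dcp1a stood at 0.50 and Pan3 at 0.33. Cnot7 in IVG against IVG day 6 stood at -0.66 within rRNA-poor libraries. With time under NT-4, Dcp1a stood at -0.40 and Pan3 at -0.58 within rRNA-poor libraries, Pan2 at 1.59 without the shallow pair, and Dcp1a at -0.0023, Pan2 at 0.068 and Pan3 at -0.40 with the kind in the model as well. In the interaction Cnot6l stood at -0.15 and Pan3 at -1.04 within rRNA-poor libraries, Pan2 at 1.27 without the shallow pair and Pan3 at -0.60 with the kind in the model as well. Between kinds Cnot7 stood at -0.23 without the shallow pair.

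Leaving out 1 library gave ranges across 0 for Btg4 (-0.0587 to 0.26) and Cnot6l (-0.083 to 0.55) in IVG against IVV, and for Cnot6l (-0.15 to 0.75) and Dcp1a (-0.82 to 0.25) in IVG-NT against IVG. On day 6 it did for Btg4 (-1.35 to 0.20), Cnot7 (-0.53 to 0.92) and Pan2 (-0.29 to 0.94), for Pan2 with time under NT-4 (-0.74 to 0.48) and in the interaction (-1.05 to 0.17), and between kinds for Cnot7 (-0.30 to 0.67) and Zfp36l2 (-0.61 to 0.0096). Depth limits Zfp36l2 most, which rested on 0 to 488 counts a library, and the shallow pair.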
